A study of Mus musculus with 9 samples.

Results

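The Tweety family of membrane proteins has 3 genes in the mouse, Ttyh1, Ttyh2 and Ttyh3, and was chosen by the large rise of Ttyh1 in neurospheres that received growth factors at 4-day intervals. All probe sets whose platform symbol was 1 of these names were taken, which gave 7 of 45037 probe sets and 3 of 18193 genes with a symbol of their own. The arrays were Affymetrix Mouse Genome arrays, hybridised with RNA of floating neurospheres grown from adult olfactory bulb stem cells (aOBSCs). The cells had been expanded to passage 3 with daily FGF-2 and EGF, each at 20 ng/ml, and were then kept for further passages under 1 of 3 regimes: daily addition of both factors (Ctr), addition at 2-day intervals (C2) or at 4-day intervals (C4). Each regime has 3 arrays, which makes 9. RNA was taken after 7 days in culture, when C2 cells had been without newly added factors for 1 day and C4 cells for 3 days. The mice behind the arrays were 7 and 15 months old. The deposited design calls the samples biological replicates, but the sources used here give neither the age and strain for each array nor whether arrays of 1 regime stem from independent cultures, so the p-values reflect the spread among these RNA samples, which may be technical.

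Tweety proteins are named after the tweety gene of Drosophila. They span the membrane several times, form dimers, and have been linked to chloride and volume-regulated anion currents, although their structures show no evident pore. Ttyh1 is abundant in neural stem cells, astrocytes and radial glia, and in mouse neural stem cells it has been tied to Notch signalling through the gamma-secretase complex, the protease that releases the active Notch fragment, and through Rer1, a retention factor for that complex. TTYH2 and TTYH3 have been described in human cells as plasma membrane proteins that the ubiquitin ligase NEDD4L marks for turnover, and TTYH3 as a calcium-activated chloride channel of large conductance.

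The 3 genes lie on different chromosomes of GRCm38.p6: Ttyh1 (Entrez 57776) on chromosome 7 at 4119530 to 4135407, Ttyh2 (Entrez 117160) on chromosome 11 at 114675468 to 114720984, and Ttyh3 (Entrez 78339) on chromosome 5 at 140620577 to 140649071. Their upstream sequences are shown because the 3 genes differ in how far they moved between the conditions. Each line gives 210 bases upstream of the gene from RefSeq, 5′ to 3′ on its strand, with 40 bases left out before Ttyh1 and Ttyh2 and 0 before Ttyh3, and with GC boxes (GGGCGG or its complement) in capitals. The windows are chr7:4119280-4119489 on the plus strand, chr11:114675218-114675427 on the plus strand and chr5:140649072-140649281 on the minus strand.
Ttyh1: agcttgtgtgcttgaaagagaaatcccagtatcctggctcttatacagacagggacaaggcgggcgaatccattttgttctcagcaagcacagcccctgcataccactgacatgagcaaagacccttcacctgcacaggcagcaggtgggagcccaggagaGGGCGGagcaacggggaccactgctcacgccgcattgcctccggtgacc
Ttyh2: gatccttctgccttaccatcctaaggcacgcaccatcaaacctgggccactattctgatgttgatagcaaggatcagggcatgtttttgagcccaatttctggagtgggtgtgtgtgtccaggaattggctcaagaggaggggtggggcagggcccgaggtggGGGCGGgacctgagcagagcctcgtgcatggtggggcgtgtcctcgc
Ttyh3: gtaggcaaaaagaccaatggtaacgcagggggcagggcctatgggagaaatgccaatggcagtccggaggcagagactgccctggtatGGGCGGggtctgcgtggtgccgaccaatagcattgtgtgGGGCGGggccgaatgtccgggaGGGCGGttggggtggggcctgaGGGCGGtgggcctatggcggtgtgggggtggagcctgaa

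The Ttyh3 window was the richest of the 3 in G and C, at 65.2% with 11 CG dinucleotides and 4 GC boxes. The Ttyh2 window had 58.6% G and C, 6 CG dinucleotides and 1 GC box, and the Ttyh1 window had 57.6%, 7 CG dinucleotides and 1 GC box. Over the same 210-base windows of 32851 RefSeq promoters the median was 51.9% G and C with 4 CG dinucleotides, and 26.7% held a GC box. On both strands, CCAAT was found 3 times for Ttyh3, 2 times for Ttyh2 and 0 times for Ttyh1, against at least 1 match in 29.9% of all windows. The NFI half-site TTGGCA was found 1 time, for Ttyh3, and 10.8% of all windows held it, and 1 CCAAT and 1 TTGGCA match of Ttyh3 share bases. The TATA box (TATAAA), the core bound by RBPJ (TGGGAA), the FOXO motif (GTAAACA), the AP-1 motif (TGANTCA) and the CRE (TGACGTCA) were not in any of the 3 windows, and 9.56%, 18.6%, 2.68%, 5.84% and 0.998% of all windows held them, in that order. These letter matches are descriptions of the sequence, and no measurement of binding was made.

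Expression is given as the deposited log2 GCRMA value, on which a difference of 1 is a doubling. Values ran between 2.267 and 15.2, with an upper quartile of 6.46 to 6.60 on each array and 34.8% to 35.8% of probe sets at the lowest value of their array. Arrays of the same condition correlated at 0.9977 to 0.9988 and arrays of different conditions at 0.9953 to 0.998, across probe sets. A probe set with a mean under 4 is called near the floor here, and no fold is given for it. In whole neurospheres, fewer cells of a type and less RNA per cell cannot be told apart.

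Ttyh1 was measured by 4 probe sets, of which 3 were well above the floor. In the brightest, 1422695_at, the Ctr arrays read 8.01, 8.28 and 8.34, the C2 arrays 8.39, 8.45 and 8.46, and the C4 arrays 10.13, 10.15 and 10.10. The C4 arrays stood apart from all others, and the C2 arrays lay just above the Ctr arrays. The Ctr mean was 8.21 ± 0.18, the C2 mean 8.43 ± 0.038 and the C4 mean 10.12 ± 0.026 (SD, n = 3 each). The C4 mean was 1.91 above Ctr (SE 0.084), which is 3.77-fold, and 1.69 above C2, which is 3.23-fold. These differences chose the family and are given without a test, and the first ranked 17th from the highest among 45037 probe sets.

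A second Ttyh1 probe set, 1422694_at, read 6.27, 6.24 and 6.52 in Ctr, 6.08, 6.16 and 5.99 in C2, and 8.12, 8.09 and 8.35 in C4. Its C4 mean was 1.84 above Ctr (SE 0.102; 3.59-fold) and 2.11 above C2 (4.31-fold). The third, 1426617_a_at, whose suffix marks probes shared by alternative transcripts of 1 gene, read 4.71, 4.71 and 5.20 in Ctr, 4.83, 5.16 and 5.16 in C2, and 6.86, 7.16 and 7.19 in C4. Its C4 mean was 2.2 above Ctr (SE 0.18; 4.59-fold) and 2.02 above C2 (4.06-fold). On all 3 probe sets, no C4 array overlapped a Ctr or C2 array, and the C4 minus Ctr differences lay between 1.84 and 2.2. The fourth, 1422696_at, read 2.38 on all 9 arrays and gave no information. RefSeq lists 4 transcripts for Ttyh1, and which of them each probe set reads was not determined here.

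Ttyh2, whose human protein is a NEDD4L substrate like that of TTYH3, was high in C4 as well. Its main probe set, 1434500_at, read 7.39, 7.53 and 7.49 in Ctr, 7.30, 7.36 and 7.59 in C2, and 8.51, 8.36 and 8.77 in C4. Ctr and C2 arrays overlapped, and all C4 arrays lay above both. The C4 mean of 8.55 ± 0.21 stood 1.08 above the Ctr mean of 7.47 ± 0.072 (SE 0.12; 2.12-fold) and 1.13 above the C2 mean of 7.42 ± 0.15 (SE 0.12; 2.2-fold). The other Ttyh2 probe set, 1421179_at, was near the floor throughout, at 2.38, 2.98 and 2.83 in C4 and at 2.36 on all C2 and Ctr arrays.

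Ttyh3, the putative large-conductance chloride channel, had 1 probe set and moved least. 1454978_at read 8.73, 8.69 and 8.78 in Ctr, 8.58, 8.45 and 8.56 in C2, and 9.24, 9.14 and 9.22 in C4. The 3 conditions did not overlap, with C2 lowest, Ctr between and C4 highest. The C4 mean of 9.20 ± 0.054 was 0.47 above the Ctr mean of 8.73 ± 0.043 (SE 0.044; 1.38-fold) and 0.67 above the C2 mean of 8.53 ± 0.068 (SE 0.044; 1.59-fold).

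**Figure D1:**
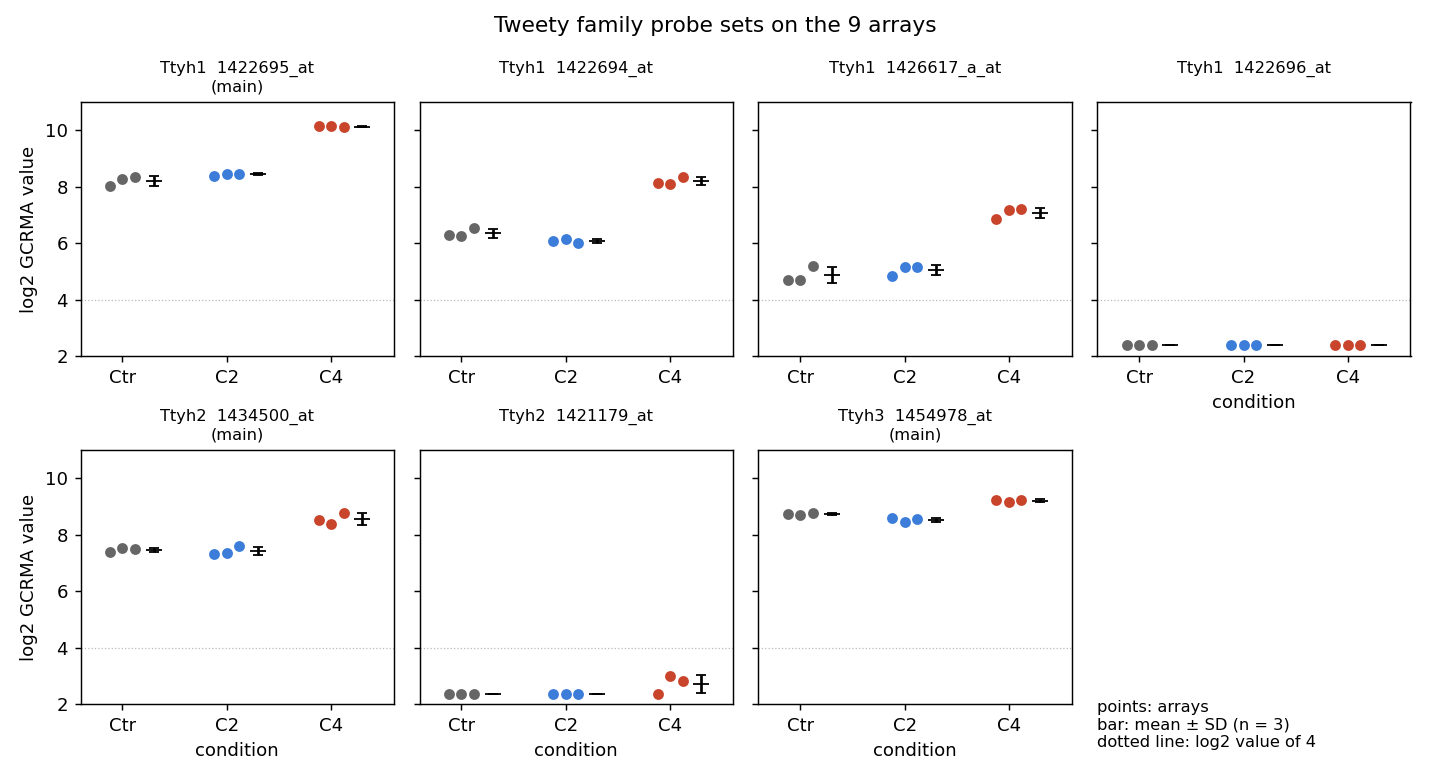
The 7 Tweety family probe sets on the 9 arrays, with the condition on the x axis and the log2 GCRMA value on the y axis; points are arrays, bars the mean ± SD (n = 3), and the dotted line a log2 value of 4. The C4 points stand above the Ctr and C2 points on 3 Ttyh1 probe sets, the main Ttyh2 probe set and the Ttyh3 probe set, and 1422696_at reads 2.38 on all arrays.

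C4 was also set against C2, to ask whether the 4-day interval differed from the 2-day one. Ttyh2 and Ttyh3 were both higher in C4. Ttyh2 rose by 1.13 (adjusted p = 0.00363, limma with Benjamini-Hochberg adjustment over all probe sets) and Ttyh3 rose by 0.67 (adjusted p = 0.000501), each with all 3 C4 arrays above all 3 C2 arrays. The floor-level Ttyh2 probe set differed by 0.36 (adjusted p = 0.312). The comparison shares the C4 arrays with the contrast that selected the family. With Ttyh1 included as a description, 5 of the 7 probe sets were past the test as higher and 6 did not overlap, and over all probe sets 2.86% were called higher and 7.96% had every C4 array above every C2 array. The bright Ttyh1 probe sets are among the 5, and high C4 values of Ttyh1 chose the family, so nothing is read from these counts. In C4 minus Ctr, the selecting contrast, the same counts were 5 and 6 of 7, beside 3.78% and 9.88% of all probe sets, and nothing is read from them.

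C2 was then compared with Ctr, a contrast that was not used to choose the family, although it shares the Ctr arrays with the one that was. None of the 7 probe sets passed the test, beside 1.7% of all probe sets called in either direction, while 3 had an unadjusted limma p under 0.05. Those 3 did not point the same way. Ttyh1 1422695_at differed by 0.22 in C2 minus Ctr (SE 0.084, limma adjusted p = 0.405) and Ttyh1 1422694_at differed by -0.265 (SE 0.102, limma adjusted p = 0.431), in each case with no overlap between C2 and Ctr arrays. The third bright Ttyh1 probe set differed by 0.18 with overlapping arrays (limma adjusted p = 0.846), so the direction for Ttyh1 in C2 depended on the probe set. Ttyh3 differed by -0.20, with every C2 array below every Ctr array (SE 0.044, limma adjusted p = 0.0974). Its adjusted p was 0.0382 with dim probe sets left out, so this call changed with the filter. Ttyh2 differed by -0.054 (SE 0.12, limma adjusted p = 1) with overlapping arrays. The median difference over the 7 probe sets was 0 in C2 minus Ctr.

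**Figure D2:**
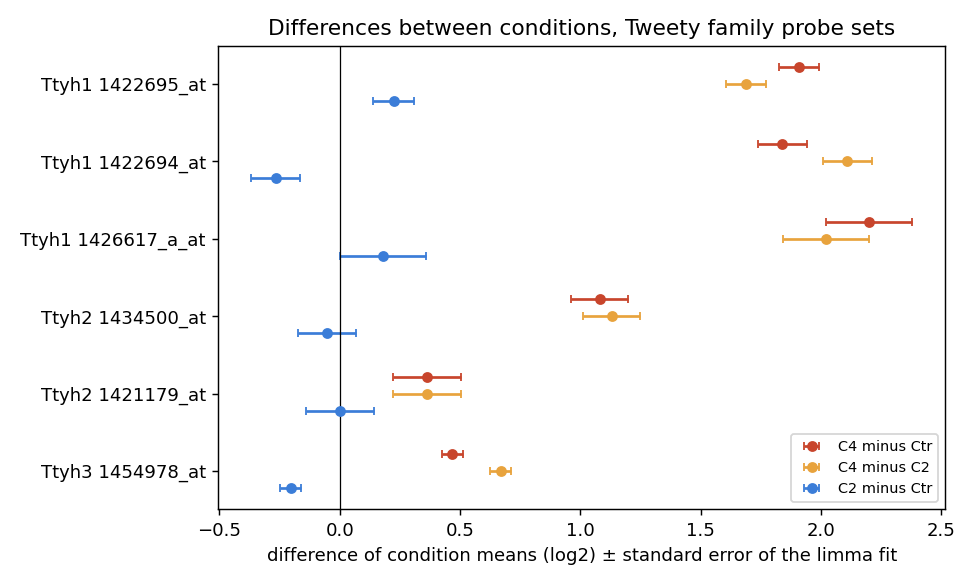
Differences between condition means for the Tweety family probe sets, on the log2 scale, with the standard error of the limma fit; the constant Ttyh1 probe set is left out. C4 minus Ctr and C4 minus C2 lie to the right of 0 for every probe set shown, and C2 minus Ctr lies between -0.265 and 0.22.

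The members were also set against each other within arrays. A difference of 2 log2 values on 1 array cancels what that array does to both, and only its shift between conditions is meaningful, since probe sets differ in how bright they are. Ttyh1 minus Ttyh2 averaged 0.74 ± 0.117 in Ctr arrays, 1.02 ± 0.124 in C2 arrays and 1.57 ± 0.235 in C4 arrays (n = 3 each, SD). Ttyh1 minus Ttyh3 averaged -0.52 ± 0.18 in Ctr, -0.095 ± 0.092 in C2 and 0.92 ± 0.075 in C4. In C4 the first ran between 1.32 and 1.79, above the Ctr range of 0.62 to 0.85, and the second between 0.87 and 1.01, above the Ctr range of -0.72 to -0.41. The shift of C4 against Ctr follows from the choice of Ttyh1 and was not tested. Between C2 and Ctr the shifts were 0.28 and 0.43, and the two-sided exact permutation test gave p = 0.1 for each (adjusted over the 2 comparisons, 0.1), which is the smallest value that 3 against 3 arrays allow, so this design could not pass a threshold of 0.05 and unequal change of the members was not shown by a test. These shifts rest on the brightest Ttyh1 probe set, while 1422694_at moved the other way in C2.

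The genes nearest to Ttyh1 in profile were found by the root mean square difference between values centred on the Ctr mean, over the 9 arrays and 9389 genes with a probe set above 4 on at least 3 arrays. The likeness is a description, over 3 conditions that include the C4 arrays on which Ttyh1 was selected. The nearest was Cerox1, a long noncoding RNA linked to mitochondrial complex I, with a root mean square difference of 0.143. Cerox1 was 1.74 higher in C4 than in Ctr and 0.33 higher in C2 than in Ctr. Next came Cdh11, a cadherin, at 0.173 (C4 minus Ctr 1.68), and Sncaip, which encodes the synuclein partner synphilin, at 0.175 (C4 minus Ctr 1.95). Decr1, an enzyme of mitochondrial fatty acid oxidation, followed at 0.205 (C4 minus Ctr 1.61), and Vcam1, an adhesion molecule, at 0.212 (C4 minus Ctr 1.60). Mgll, the monoacylglycerol lipase, stood at 0.246 (C4 minus Ctr 1.53), Dusp15, a dual-specificity phosphatase, at 0.255 (C4 minus Ctr 1.63) and Mmd2 at 0.256 (C4 minus Ctr 1.5).

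Other probe sets of these genes gave differences of other sizes. Vcam1 was 1.62 higher in C4 than in Ctr on 1415989_at and 0.81 higher on 1451314_a_at, Mmd2 1.92 on 1424534_at, Mgll 1.24 and 1.64 on a further pair, and Sncaip 1.07 on 1430463_a_at. The second probe sets of Cdh11, Decr1 and Dusp15 and a further one each of Mgll and Mmd2 lay near the floor. The family members were not among the nearest genes: Ttyh2 ranked 67th of 9389 at 0.525 and Ttyh3 730th at 0.876. The list depended on the measure. With Pearson correlation, which ignores the size of a change, 1 of the 8 genes was shared (Mmd2), and with probe sets of any level 7 of 8 were shared.

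**Figure D3:**
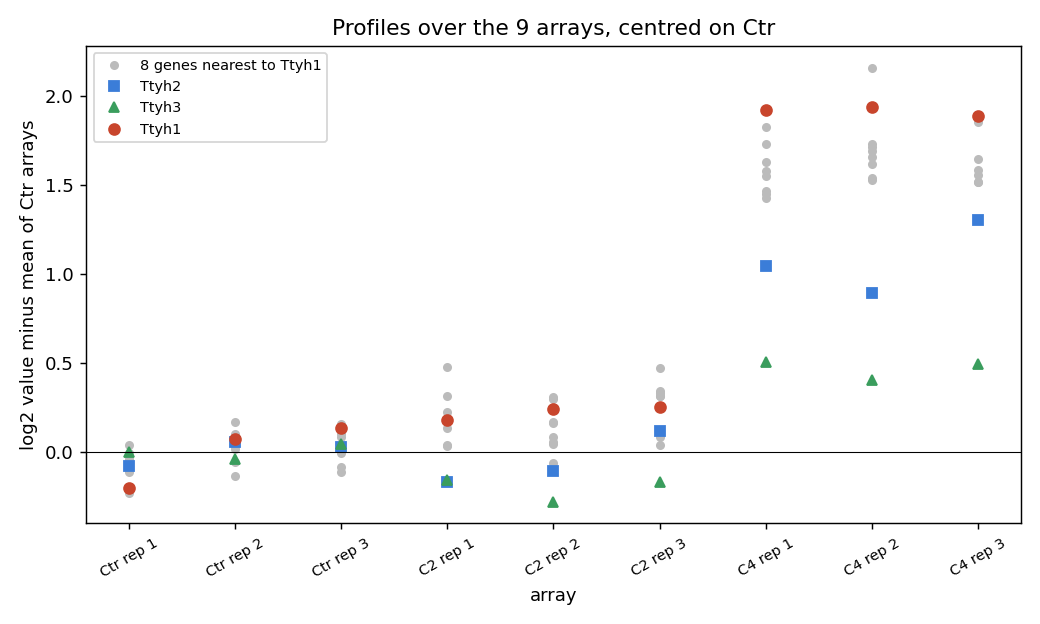
Log2 value minus the mean of the Ctr arrays (y axis) on each of the 9 arrays (x axis) for Ttyh1 (red circles), Ttyh2 (blue squares), Ttyh3 (green triangles) and the 8 genes nearest to Ttyh1 (grey). Ttyh1 stands 1.91 above Ctr on average in C4, the grey genes between 1.5 and 1.95, Ttyh2 at 1.08 and Ttyh3 at 0.47.

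The 2 nearest annotated genes with a probe set on each side of each member were examined, 12 in all, and Lfng beside Ttyh3 was the 1 that passed the test in C4 minus Ctr. Of all genes, 5.65% were called higher and 3.55% lower in that contrast. At Ttyh1, 9430041J12Rik, whose span covers the printed upstream window and the start of Ttyh1, Lair1 and Leng9 were near the floor, and Leng8, 1606 bases away, differed by 0.053 (C4 minus Ctr, limma adjusted p = 1). At Ttyh2, Rpl38, a ribosomal protein gene 3135 bases away, differed by 0.13 (limma adjusted p = 0.0567) and Btbd17 by 0.089 (limma adjusted p = 0.632). Dnaic2, 357 bases away, and 4932435O22Rik were near the floor. At Ttyh3, Lfng, a glycosyltransferase that modifies Notch receptors and lies 5032 bases away, read 7.15, 7.27 and 7.46 in C4 against 6.59, 6.72 and 6.28 in Ctr, and rose by 0.76 (SE 0.15, limma adjusted p = 0.0291). The Lfng call was lost in several alternative fits, among them fits without 1 array. Grifin was near the floor, and Iqce (0.215) and Brat1 (0.050) did not pass the test.

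Other genes of anion transport were examined from 7 lists of 41 measured genes, 24 of which were above 4 on at least 3 arrays. In C4, 1 rose and 5 fell against Ctr, 35 did not pass the test, and the median difference was 0. Over all 18193 genes, 5.65% were called higher and 3.55% lower in C4 with a median difference of 0, and over the 9390 genes above 4 on at least 3 arrays 10.7% and 6.78% with a median of 0.045.

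Of the volume-regulated anion channel subunits, none of 4 measured genes passed the test in C4 minus Ctr, and 1 had an unadjusted limma p under 0.05. Lrrc8a, the obligatory subunit, read 9.48, 9.25 and 9.26 in C4 against 9.40, 9.34 and 9.28 in Ctr, a difference of -0.0082 (SE 0.070, limma adjusted p = 1). In C2 Lrrc8a read 9.79, 9.83 and 9.90, all above the Ctr arrays, and rose by 0.50 (SE 0.070, limma adjusted p = 0.0259). That call was lost when any 1 array of C2 or Ctr was left out, with differences between 0.47 and 0.53. Of the channel partners, Lrrc8c differed by -0.27 in C4 (limma adjusted p = 0.0641), Lrrc8d by 0.12 with overlapping arrays, and Lrrc8e was near the floor.

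The anoctamins, which include calcium-activated chloride channels and lipid scramblases, had 0 of 7 genes called in C4 minus Ctr and 0 at an unadjusted limma p under 0.05. Ano6, a scramblase, differed by 0.044. Both measured bestrophins were near the floor. Of 9 ClC genes, Clcn6, a chloride and proton exchanger of late endosomes, rose and 8 did not pass the test. Clcn6 read 7.57, 7.66 and 7.75 in C4 against 6.99, 6.93 and 7.17 in Ctr, a difference of 0.63 (SE 0.077, limma adjusted p = 0.00555). Of 5 CLIC genes, 2 fell. Clic5, a protein of the actin-rich cell cortex, read 5.76, 6.05 and 6.38 in C4 against 7.72, 7.73 and 7.76 in Ctr and fell by 1.67 (SE 0.14, limma adjusted p = 0.00131), and Clic1 fell by 0.38 (limma adjusted p = 0.0208). Of the 6 other anion channels, the mitochondrial porins Vdac1 and Vdac3 fell by 0.22 and 0.17 in C4 (limma adjusted p = 0.0138 and 0.0323). Of 8 cation-chloride cotransporters, Slc12a2, which loads cells with chloride, fell by 0.44 (limma adjusted p = 0.0388). The calls of Clic1, Vdac1, Vdac3 and Slc12a2 were lost in at least 1 alternative fit, with Vdac1 at -0.0963 without probe sets that may cross-hybridise, while those of Clcn6 and Clic5 held in all that were run.

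In C2, 3 of the 41 genes rose against Ctr and 0 fell, beside 1.67% and 0.846% of all genes and 3.21% and 1.59% of genes above 4. Besides Lrrc8a these were Vdac2, which rose by 0.25 (limma adjusted p = 0.00714), and Vdac3, which rose by 0.19 (limma adjusted p = 0.0494). The Vdac3 difference was thus positive in C2 and negative in C4. The Vdac2 call was lost with the robust option and the Vdac3 call in most alternatives.

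**Figure D4:**
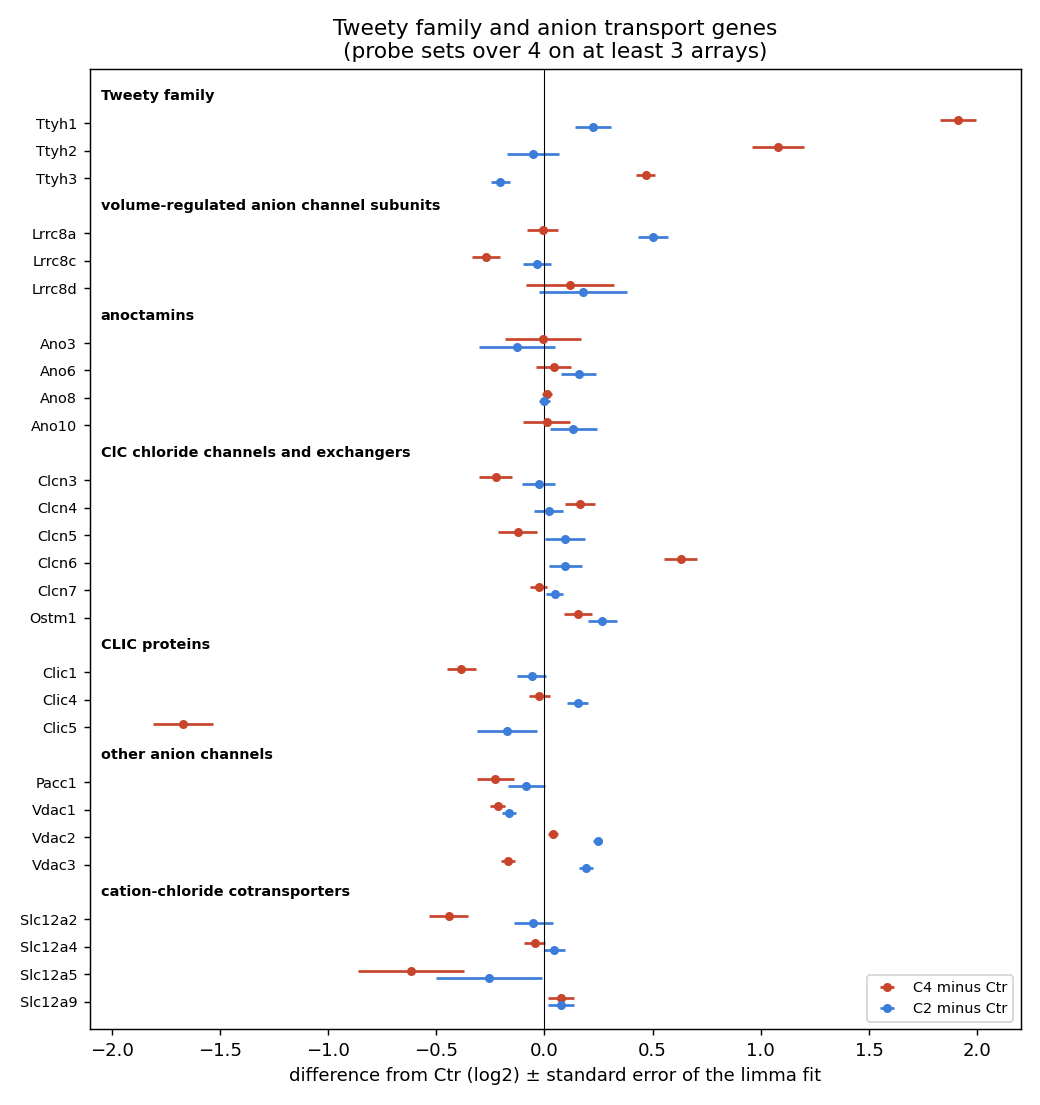
Difference from Ctr on the log2 scale (x axis), with the standard error of the limma fit, for the 3 Tweety genes and the anion transport genes above 4 on at least 3 arrays, with C4 minus Ctr in red and C2 minus Ctr in blue. Ttyh1, Ttyh2 and Ttyh3 lie at 1.91, 1.08 and 0.47 in C4. The highest of the other genes, Clcn6, lies at 0.63, above Ttyh3, and the lowest, Clic5, at -1.67. Ttyh1 was chosen for its rise in this contrast.

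The gamma-secretase and Notch list, the pathway Ttyh1 has been tied to, had 21 measured genes, 18 of them above 4 on at least 3 arrays. In C4, 9 rose, 2 fell and 10 did not pass the test, with a median difference of 0.105. The shares in C4 were 5.65% higher and 3.55% lower over all genes, and 10.7% and 6.78% over genes above 4 on at least 3 arrays. Among the ligands, Dll3 read 7.22, 7.17 and 7.30 in C4 against 5.88, 5.94 and 5.95 in Ctr and rose by 1.31 (SE 0.071, limma adjusted p = 0.000292), and Dll1 rose by 1.13 (SE 0.13, limma adjusted p = 0.00421). Jag1, another ligand, rose by 0.64 in C2 (limma adjusted p = 0.00156) and fell by 0.405 in C4 (limma adjusted p = 0.000969), with Ctr arrays at 8.99, 9.00 and 9.06, C2 arrays at 9.65, 9.60 and 9.70, and C4 arrays at 8.61, 8.58 and 8.64. In C4, Dll1 and Dll3 were thus higher than in Ctr and Jag1 lower.

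The receptors Notch1 and Notch2 rose by 0.43 and 0.765 in C4 (limma adjusted p = 0.0188 and 0.00979), and Notch3 differed by 0.00022 (limma adjusted p = 1). Rbpj, the DNA-binding partner of the active Notch fragment, fell by 0.46 in C4 and fell by 0.39 in C2 (limma adjusted p = 0.0013 and 0.00936). Of the target genes, Nrarp, a feedback inhibitor, rose by 0.91 (limma adjusted p = 0.000363), Hey1 by 0.72, Hes1 by 0.40 and Hes5 by 0.30 in C4. Of the gamma-secretase subunits, Psenen rose in C4 by 0.26 (limma adjusted p = 0.00537), and Ncstn, Aph1a and Aph1b did not pass the test in C4. Rer1 differed by 0.15 (limma adjusted p = 0.315), with every C4 array above every Ctr array. In C2, 2 genes of the list rose, Jag1 and Psenen (0.22, limma adjusted p = 0.0302), and 3 fell, Rbpj, Aph1b (-0.35, limma adjusted p = 0.0332) and Dll3, which fell by 0.55 (limma adjusted p = 0.0211) where it rose in C4. The shares over all genes in C2 were 1.67% higher and 0.846% lower. The C4 calls of Notch1, Notch2, Hes1, Hes5 and Jag1 and the C2 calls of Jag1, Psenen, Rbpj and Dll3 were lost in at least 1 alternative fit. Alternative fits of Aph1b are not given here. With the mean over all probe sets of a gene, the difference was 0.0705 for Notch1 in C4, -0.205 for Jag1 in C4 and 0.204 for Jag1 in C2.

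The NEDD4 ligases and their adaptors, with 11 measured genes, gave 1 higher and 1 lower in C4 and 9 not called, with a median difference of 0.051. With 5.65% of all genes called higher and 3.55% lower, nothing is read from these counts. Wwp1, a ligase, rose by 0.26 (limma adjusted p = 0.0356), and Ndfip1, an adaptor, fell by 0.23 (limma adjusted p = 0.0176), and both calls were lost in several alternative fits. In C2, Wwp1 was the 1 gene called higher, by 0.316 (limma adjusted p = 0.0429), and 0 were lower. Of all genes, 1.67% were called higher and 0.846% lower in C2. The C2 call of Wwp1 was lost in most alternative fits. Nedd4l, the ligase described for TTYH2 and TTYH3, differed by 0.059 (limma adjusted p = 0.951) with overlapping arrays.

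Of the 11 measured genes of astrocyte water, ion and glutamate handling, 7 rose in C4, 0 fell and 4 did not pass the test, with a median difference of 0.42. Among all genes 5.65% were called higher and 3.55% lower, and among those above 4 on at least 3 arrays 10.7% and 6.78%. Kcnj10, the inward rectifier that takes up potassium, read 9.03, 8.94 and 8.97 in C4 against 7.97, 7.76 and 8.08 in Ctr and rose by 1.04 (SE 0.079, limma adjusted p = 0.000924). Hepacam, an adhesion molecule of astrocytes, rose by 1.02 (SE 0.101, limma adjusted p = 0.00253), and Aqp4, the water channel, rose by 0.72 (SE 0.105, limma adjusted p = 0.0108). The glutamate transporters Slc1a2 and Slc1a3 differed by 0.55 and 0.31 (limma adjusted p = 0.246 and 0.0584). The calls of Aqp4, Slc4a4 and Mlc1, which are among the 7, were lost in at least 1 alternative fit. Alternative fits of Kcnj16 and Atp1b2, also among the 7, are not given here. In C2, 0 of the 11 genes were called by limma in either direction, beside 1.67% of all genes higher and 0.846% lower. An unadjusted limma p under 0.05 was reached by 2, among them Aqp4 at -0.45 (limma adjusted p = 0.12).

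Cell type markers were read beside the family, because Ttyh1 is known from astrocytes and stem cells. In C4, 5.65% of all genes were called higher and 3.55% lower, and 10.7% and 6.78% of genes above 4 on at least 3 arrays. Of 12 astrocyte markers 5 rose in C4 and 0 fell, led by Aldh1l1 (1.11, limma adjusted p = 0.000783), Fgfr3 (1.1, limma adjusted p = 0.00176) and S100b (1.05, limma adjusted p = 0.00407), while the defining markers Gfap and Gjb6 were near the floor. By immunostaining, the study reported a larger proportion of GFAP-positive cells in C4 neurospheres. Aqp4, Slc1a2, Slc1a3, Gja1 and Gjb6 are also on the astrocyte handling list above, and Aqp4 counts as risen in both. Slc1a3 and Hes5 are also on the stem and progenitor list, and Hes5 counts as risen there and in the Notch list. Of 8 oligodendrocyte precursor markers 5 rose and 0 fell, led by Gpr17 (2.7, limma adjusted p = 0.00171), Pdgfra (0.94, limma adjusted p = 0.0177) and Cspg4 (0.61, limma adjusted p = 0.0285), with Sox10 near the floor. The Ctr mean of Pdgfra, 3.88, also lay near the floor. Of 11 neural stem and progenitor markers 5 rose and 1 fell, and Egfr (0.83, limma adjusted p = 7.72e-05), Pax6 (0.565, limma adjusted p = 0.00241) and Nr2e1 (0.48, limma adjusted p = 0.0398) led those that rose. The 1 that fell was Vim (-0.395, limma adjusted p = 0.0256), whose alternative fits are not given here. Sox2 differed by -0.07 and did not pass the test, and Prom1 was near the floor. The mean log2 value was higher on every C4 array than on every Ctr array for all 3 lists: 8.81 to 8.91 against 8.39 to 8.46 for astrocytes, 8.24 to 8.43 against 7.70 to 7.74 for precursors and 9.53 to 9.61 against 9.27 to 9.32 for stem and progenitor cells. The summed linear level gave the same for astrocytes (27820 to 28425 in C4, against 23270 to 24540 in Ctr) and precursors (22241 to 23173 in C4, against 18930 to 20203 in Ctr), but overlapped for stem and progenitor cells (69362 to 73449 in C4, against 67843 to 73060 in Ctr), so that list's order depended on the scale. The separation of means was not particular to these lists. C4 arrays also lay above all Ctr arrays for neuroblasts and neurons (4.26 to 4.29 against 4.23 to 4.24). The same held for myelinating oligodendrocytes (3.3 to 3.36 against 3.24 to 3.26) and pericytes and fibroblasts (3.01 to 3.07 against 2.96 to 2.99). Microglia and macrophages and olfactory ensheathing cells lay lower on every C4 array than on every Ctr array.

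Cspg4 is also on the list of pericytes and fibroblasts, whose other 7 markers were near the floor. Most markers of other cell types were near it as well: 9 of 10 for microglia and macrophages, 10 of 13 for neuroblasts and neurons, 8 of 9 for myelinating oligodendrocytes, 6 of 7 for olfactory ensheathing cells and 6 of 6 for endothelial cells. Those above it that passed the test in C4 were Cd68, a lysosomal glycoprotein of macrophages, which fell by 2.72 (limma adjusted p = 8.43e-05), Pmp22, a myelin protein on the ensheathing list, which fell by 0.97 (limma adjusted p = 0.00512), Gad1, which fell by 0.365 (limma adjusted p = 0.0152), Cd24a, which rose by 0.465 (limma adjusted p = 0.00176), and Cnp, which rose by 0.44 (limma adjusted p = 0.00154). In C2, where no Tweety probe set passed the test, Aldh1l1 and Gpr17 were the called genes of the astrocyte and precursor lists and, unlike in C4, lay below Ctr: Aldh1l1 fell by 0.76 (limma adjusted p = 0.0107) and Gpr17 fell by 1.71 (limma adjusted p = 0.0272). The C2 mean of Gpr17, 3.12, lay near the floor, so the size of its fall is uncertain. By RT-qPCR the study reported the opposite direction, with Gpr17 upregulated in C2. Cd24a and Cnp, which rose in C4, also lay below Ctr in C2, at -0.461 and -0.289 (limma adjusted p = 0.00734 and 0.0236). Their C2 and Ctr arrays did not overlap. The C4 calls of Pdgfra, Cspg4, Olig1, Pax6, Nr2e1, Gad1, Cd24a and Cnp were lost in at least 1 alternative fit. Olig1 is among the precursor markers that rose. The C2 calls of Aldh1l1, Gpr17, Cd24a and Cnp were also lost in at least 1 alternative fit. With the mean over all probe sets of a gene, the C4 difference was 0.221 for Pax6 and 0.134 for Cd24a. The part of these cell types in the Tweety result was not tested.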

How the data were processed

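Expression was measured in 9 aOBSC neurosphere samples on Affymetrix Mouse Genome arrays. The deposited log2 values were made by the authors with GCRMA, which corrects background by probe sequence, normalises between arrays by quantiles and summarises each probe set, so values near the floor carry little information. Arrays give no read depth, so precision rests on having 3 arrays per condition. Of 45101 probe sets, 64 Affymetrix controls were left out and 45037 entered a limma 3.58.1 model (R 4.3.3) that gave each condition a mean, with an intensity trend in eBayes and Benjamini-Hochberg adjustment over all of them. A probe set with an adjusted p under 0.05 was called. The platform annotation gave 1 symbol to 34945 probe sets, several to 932 and none to 9160, and 34741 probe sets had an Entrez number in RefSeq GRCm38.p6. Where a gene had several probe sets, the brightest over all arrays stood for it. The family was chosen by the C4 minus Ctr rise of Ttyh1, so for its members that contrast is given without p-values, and the count of members past its threshold stands beside that of all probe sets with nothing read from it. Named genes were all family probe sets, the 8 genes nearest to Ttyh1, up to 3 called genes of each list with the largest C4 minus Ctr difference, the volume-regulated channel subunits, and the 2 nearest genes on each side. Other list genes were named after their values were seen. The members and lists were chosen with earlier results of these data known. Within-array differences were compared with exact permutation tests in SciPy 1.17.1. The fit was tested on simulated data. Alternatives changed the variance model, the block, the arrays fitted, the filter on dim probe sets, the choice of probe set and the scaling.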

Additional observations from a re-analysis of the deposited data

How the results depend on the processing

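Over 17 alternative fits, Ttyh2 and Ttyh3 stayed past the threshold in C4 minus C2, with Ttyh2 between 0.75 and 1.23 (limma adjusted p between 8.62e-05 and 0.0327) and Ttyh3 between 0.63 and 0.70 (between 3.72e-05 and 0.00897). Ttyh1 in C2 minus Ctr passed in none of them (0.035 to 0.29, adjusted p between 0.122 and 1). Taking the mean over all probe sets of a gene, which brings in the floor-level ones, gave 1.49 (C4 minus Ctr) and 1.45 (C4 minus C2) for Ttyh1 and 0.72 (C4 minus Ctr) for Ttyh2. Ttyh2 in C2 minus Ctr was 0.0030 without C2 replicate 1, and ranged from -0.139 over the fits without 1 array. Ttyh3 in C2 minus Ctr was -0.20 with an adjusted p of 0.0471 under the replicate block and 0.0382 with dim probe sets left out. Correlations of deviations from the condition means ran between -0.0426 and 0.126 for same-numbered arrays and between -0.122 and 0.092 for others. The ranges overlapped, so no pairing by number was evident, but 3 arrays a condition cannot exclude one. The block moved the probe sets called in C2 minus Ctr from 767 to 237. The other counts of called probe sets in C2 minus Ctr were 45 (robust eBayes), 371 (only the 2 conditions), 1825 (dim probe sets left out) and 323 to 584 (without 1 array). In C4 minus Ctr, 2833 became 1386, 1618, 4697 and 1818 to 2585 in the same order. In C4 minus C2, 2363 became 1178, 1404, 3908 and 1485 to 2091. Of the list genes, 33 were called higher in C4 minus Ctr (26 to 34 without 1 array). The 12 called lower became 6 (robust eBayes), 7 (block), 6 (only the 2 conditions) and 5 to 11 (without 1 array). In C2 minus Ctr, the 6 called higher became 1, 2 and 3 in those 3 fits, 12 with dim probe sets left out and 2 to 5 without 1 array. The 7 called lower became 0, 2 and 3, 12 with dim probe sets left out, 11 with arrays centred on their median and 3 to 7 without 1 array. In C4 minus Ctr, Lrrc8a ranged between -0.0845 and 0.032 over the fits without 1 array (0.022 without Ctr replicate 1, 0.028 without C4 replicate 3) and Lrrc8d between -0.0477 and 0.335, and Vdac2 was -0.014 with arrays centred on their median. Apart from the settings whose construction is named, the cause was not tested. With 3 arrays a condition, small differences and anything near the floor stay unresolved.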
